A study of Danio rerio with 27 samples.

Results

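CYP7a1-KO in tumour-bearing larvae was described from 10 of the 27 libraries of the series: 5 PY CYP7a1-KO libraries and the 5 PY SLC45a2-KO libraries that served as their controls, chosen by their labels. PY larvae carried P53KO;lf:YAP, a p53 knockout combined with constitutive overexpression of YAP in the liver (the sources used here do not spell out "lf"), and the labels call them cachectic (wasting) and tumour-burdened. Every group, the controls included, had received CRISPR/Cas9 guides against SLC45a2, a transporter needed to make melanin, whose loss marks injected animals by their colour. The PY CYP7a1-KO group had received guides against CYP7a1 in addition (P53KO;lf:YAP;SLC45a2-KO;CYP7a1-KO). PY TGR5-KO (5 libraries, guides against SLC45a2 and TGR5), WT SLC45a2-KO and WT CYP7a1-KO (4 libraries each) were used for comparison. Each library was a 3′ mRNA library from a pool of whole larvae at 21 days post fertilisation, so p-values measure the spread between pools. Guide complexes were injected into embryos, and how evenly a larva's cells were edited was not analysed here. The sources used here give neither the larvae per pool nor where the guides cut.

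CYP7A1 is the rate-limiting enzyme of classical bile acid synthesis, which turns cholesterol into bile acids in hepatocytes. In mammals bile acids activate the nuclear receptor FXR, which restrains CYP7A1 through the corepressor SHP, and the membrane receptor TGR5. They also emulsify dietary fat, and their synthesis is a main route by which cholesterol leaves the body. YAP is a growth-promoting transcriptional coactivator whose overactivity in the liver drives overgrowth and tumours.

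Total counts were 3377345 to 5348478 per library, and the 2 smallest PY CYP7a1-KO libraries, 1 and 2, stood apart from the other 3 of their group by chi-square. Differences between their counts and those of libraries 3 to 5 gave a chi-square per degree of freedom of 14.89 to 24.51, against 8.89 to 14.73 among libraries 3 to 5 and 6.56 to 12.4 within PY SLC45a2-KO. Between libraries 1 and 2 the chi-square was 8.93, while the correlation of their log2 CPM, 0.891, was the lowest within the group. In a principal component analysis of 2000 variable genes, on component 1 (29.8% of the variance), the groups did not overlap, at -29.0 to -13.3 for PY SLC45a2-KO and 6.99 to 28.1 for PY CYP7a1-KO, where library 5 lay nearest to the controls. Library 2 lay alone on the second component (14.6%), at -45.7 against 1.57 to 20.4 for the others of its group. Library 1 lay at 27.6 and 20.4 on these components, near library 3 at 28.1 and 10.4. The components therefore do not group libraries 1 and 2. Because of the chi-square values, counts of called genes are also given without libraries 1 and 2. Markers of hepatocytes, pancreas, gut, muscle, photoreceptors and neurons were detected in all 10 libraries, which are labelled as whole larvae. In bulk samples fewer cells of a type and less RNA per cell cannot be told apart.

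Values below are CPM (counts per 1000000 counts, scaled by TMM factors) as mean ± SD with n = 5 per PY group, and log2 changes ± SE from edgeR's quasi-likelihood test, with p-values adjusted by Benjamini-Hochberg over all genes tested. A gene passed, and is said to have risen or fallen, at an adjusted p below 0.05.

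The targeted gene was examined first. The cyp7a1 transcript stood at 7.22, 16.96, 10.5, 15.2 and 10.9 CPM in PY CYP7a1-KO libraries 1 to 5 and at 12.6, 10.99, 7.26, 5.25 and 6.79 CPM in PY SLC45a2-KO libraries 1 to 5. The groups overlapped, and the log2 difference of 0.49 ± 0.29 did not pass (adjusted p = 0.307). A frameshifting edit need not lower a transcript, and 3′ tags that lie away from an edit check nothing about the knockout. The marker gene slc45a2 was near the limit of detection, with 4 counts in 1 library of PY CYP7a1-KO and 11 counts in 3 libraries of PY SLC45a2-KO.

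To ask what CYP7a1 targeting changed in the tumour background, the PY CYP7a1-KO libraries were set against PY SLC45a2-KO. Of 13725 genes tested 1443 passed (10.5%), 719 higher (5.24%) and 724 lower (5.28%), with a median log2 change of -0.003 over all genes tested. Counts of the lists below are to be read beside these shares. Without libraries 1 and 2 of PY CYP7a1-KO 1271 of 14616 passed (8.7%), 696 higher (4.76%) and 575 lower (3.93%), of which 990 were among the 1443. Genes of cholesterol synthesis, the exocrine pancreas, the intestine, muscle, lens, retina and skeleton were among those that rose. Genes of complement, NF-kB feedback and the AP-1 family were among those that fell, as were 3 of 26 genes of the insulin/IGF axis.

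**Figure D1:**
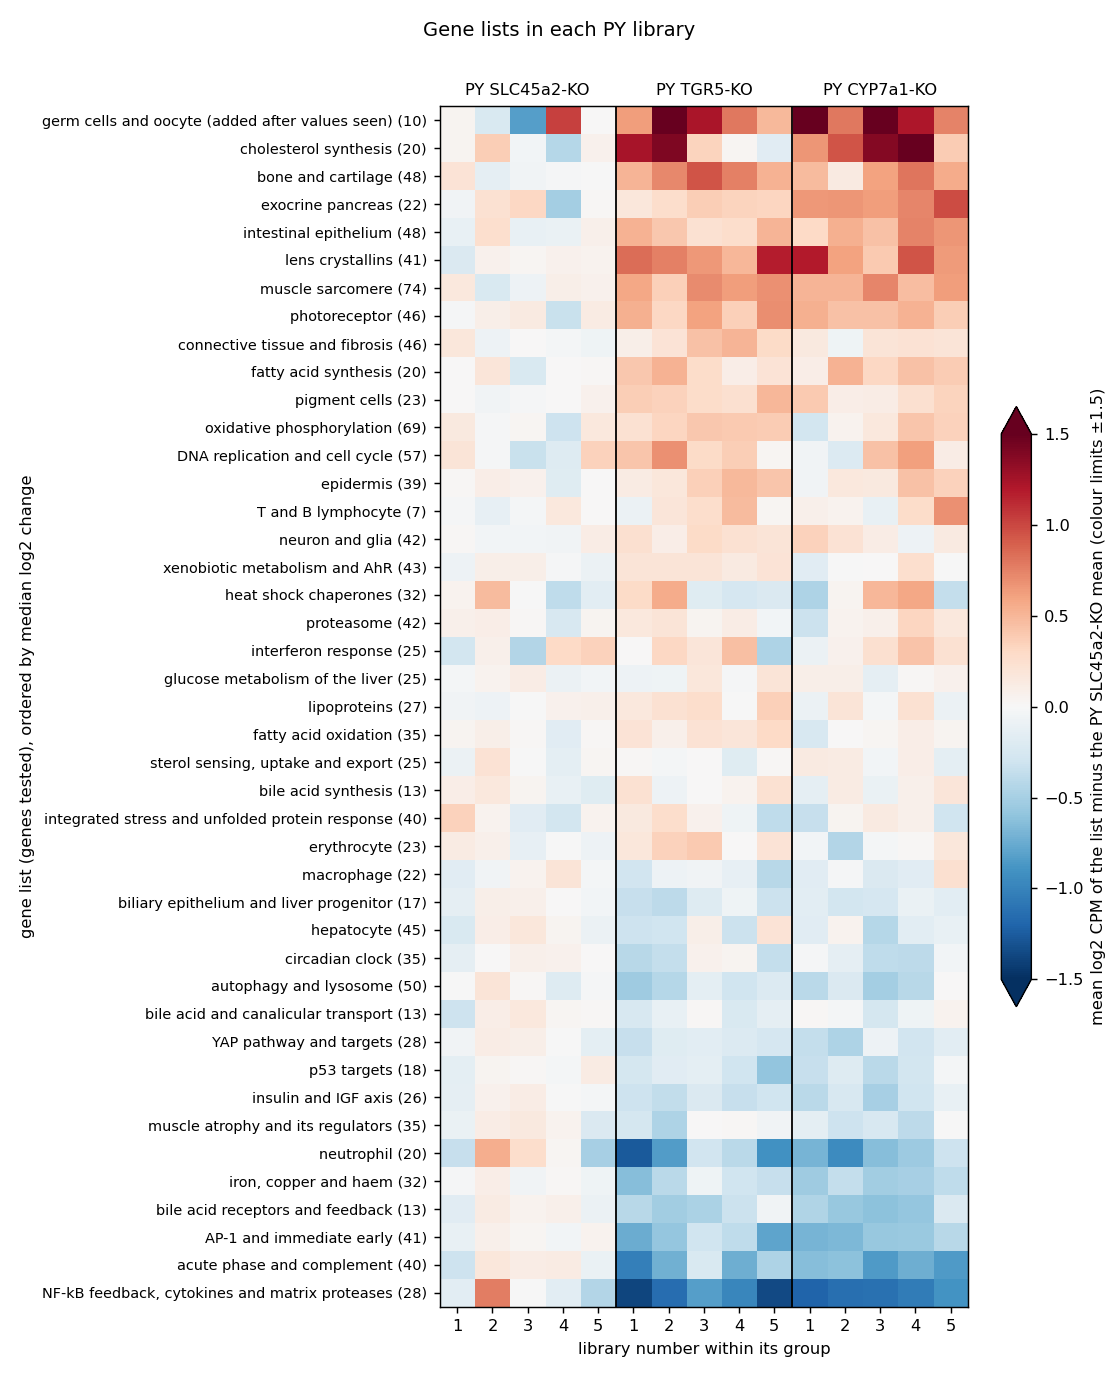
Mean log2 CPM of each gene list in each of the 15 PY libraries, minus the mean of PY SLC45a2-KO (colour, limits ±1.5). Rows are lists with the number of genes tested, ordered by the median log2 change in PY CYP7a1-KO, and columns are libraries. NF-kB, acute phase and AP-1 lists are blue in all 5 PY CYP7a1-KO libraries, and the exocrine pancreas and sarcomere lists are red in all 5. These lists have the same colours in all 5 PY TGR5-KO libraries.

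The bile acid genes themselves moved in both directions. Of 13 tested synthesis genes 2 rose and 1 fell and the other 10 did not pass (median log2 -0.04). The member that fell, sult2st3, lost its call without PY SLC45a2-KO library 2 or 4 or PY CYP7a1-KO library 4 or 5. The smallest p among the 3 was that of cyp8b1, the sterol 12-alpha-hydroxylase that in mammals directs synthesis to cholic acid. It stood at 14.7, 33.3, 29.5, 51.2 and 20.2 CPM in PY CYP7a1-KO libraries 1 to 5 and at 9.87, 7.67, 6.76, 7.73 and 7.22 CPM in PY SLC45a2-KO. Every PY CYP7a1-KO library lay above every control, and cyp8b1 was 3.79-fold higher (log2 1.92 ± 0.30, adjusted p = 0.000110). The peroxisomal enzyme hsd17b4, which shortens the side chain of bile acid precursors and of fatty acids, rose from 8.28 ± 2.77 to 16.7 ± 6.28 CPM (log2 1.02 ± 0.30, adjusted p = 0.0265). Its level was highest in PY CYP7a1-KO library 4, and the call was lost without that library (adjusted p = 0.142) or without PY SLC45a2-KO library 5 (adjusted p = 0.0799).

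Of the receptors and feedback genes 1 of 13 rose and 3 fell (median log2 -0.46). The FXR-related nuclear receptor nr1h5 fell 3.01-fold (log2 -1.59 ± 0.24, adjusted p = 4.36e-05). It measured 8.77, 12.6, 12.04, 10.8 and 15.8 CPM in PY CYP7a1-KO libraries 1 to 5 and 31.2, 41.9, 45.0, 26.5 and 36.7 CPM in the controls, which did not overlap. The homeobox factor prox1a, whose human counterpart represses CYP7A1, stood at 27.9, 39.2, 29.2, 34.5 and 53.6 CPM against 57.9, 84.6, 92.6, 104 and 72.6 CPM, again with all libraries of PY CYP7a1-KO below all controls (log2 -1.15 ± 0.19, adjusted p = 0.000107). The liver receptor homolog nr5a2, an activator of bile acid synthesis genes in mammals, fell by less and its groups overlapped (log2 -0.67 ± 0.18, adjusted p = 0.0141). Without PY SLC45a2-KO library 4 or PY CYP7a1-KO library 3 it no longer passed (adjusted p = 0.0580 and 0.0559). The SHP gene nr0b2a, chosen after its values were seen, stood at 11.1, 12.6, 4.08, 3.80 and 26.1 CPM against 36.3, 27.2, 32.0, 27.9 and 19.3 CPM and did not pass (log2 -1.31 ± 0.45, adjusted p = 0.0809). Its level in PY CYP7a1-KO library 5 lay within the control range and in libraries 1 to 4 below it. In 5 of 21 alternatives nr0b2a passed, and the adjusted p ran from 0.00103 to 0.214 over all 21. Its log2 change was largest without PY CYP7a1-KO library 5 (-1.895). The member that rose was cyp3a65, a detoxifying cytochrome P450 of gut and liver, at 308 ± 40.7 CPM against 164.2 ± 25.02 CPM (log2 0.91 ± 0.15, adjusted p = 0.000212).

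Calls among bile acid and canalicular transporters depended on single libraries. Of 13 tested, 2 rose and 2 fell, and without libraries 1 and 2 of PY CYP7a1-KO abcb11b, abcc2 and abcb4 no longer passed (adjusted p = 0.0571, 0.135 and 0.107). The bile salt export pump abcb11b measured 145.7, 167.3, 125, 116 and 133 CPM against 121, 265, 317, 282 and 156.9 CPM in the controls, where libraries 1 and 5 were low and overlapped with PY CYP7a1-KO (log2 -0.73 ± 0.21, adjusted p = 0.0274). Its paralog abcb11a, named after its values were seen, went the other way (log2 1.33 ± 0.42, adjusted p = 0.0392). Without PY CYP7a1-KO libraries 1 and 2 no gene of this list rose. The call for abcb11b was lost without PY SLC45a2-KO library 2, 3 or 4 or PY CYP7a1-KO library 1, 3 or 4 (adjusted p = 0.0529 to 0.0879). The organic anion pump abcc2 fell (log2 -0.80 ± 0.23, adjusted p = 0.0195) and the floppase-family gene abcb4 rose (log2 0.62 ± 0.17, adjusted p = 0.0141), both with overlapping groups. Without PY CYP7a1-KO library 1 neither abcc2 nor abcb4 passed (adjusted p = 0.0536 and 0.0503), nor did abcc2 without PY SLC45a2-KO library 3 or PY CYP7a1-KO library 3 (0.0700 and 0.0658).

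Cholesterol synthesis, which supplies the substrate of CYP7A1, was higher. Of 20 tested enzymes 8 rose, the other 12 did not pass, and the list's median log2 change was 0.88. The 8 were hmgcs1, mvk, mvda, idi1, lss, nsdhl, hsd17b7 and sc5d. The HMG-CoA synthase gene hmgcs1, at the entry to the mevalonate pathway, stood at 71.9, 88.0, 125, 114 and 29.7 CPM against 14.0, 29.0, 13.8, 7.73 and 14.4 CPM in the controls. Its groups barely separated, since PY CYP7a1-KO library 5 was close to control library 2, and the fold was 5.37 (log2 2.42 ± 0.63, adjusted p = 0.0294). The mevalonate decarboxylase mvda measured 14.7, 26.6, 47.5, 55.0 and 12.5 CPM against 7.81, 4.35, 8.01, 5.25 and 6.37 CPM (log2 2.302 ± 0.66, adjusted p = 0.0439). PY CYP7a1-KO libraries 3 and 4 were the highest for hmgcs1 and mvda. Lanosterol synthase lss, which closes the sterol rings, stood at 6.19, 4.68, 12.5, 14.3 and 6.13 CPM against 2.98, 2.49, 1.00, 1.38 and 1.49 CPM (log2 2.21 ± 0.57, adjusted p = 0.0148). The sterol dehydrogenase nsdhl rose too (log2 1.76 ± 0.45, adjusted p = 0.0116), with libraries 2 and 5 of PY CYP7a1-KO inside the control range. The isomerase idi1, named after its values were seen, overlapped as well, at 56.1 ± 21.3 against 30.8 ± 7.03 CPM (log2 0.86 ± 0.23, adjusted p = 0.0163).

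The direction of these 5 named enzymes held in each alternative tried, whereas the calls depended on single libraries. The count of 8 fell to 5 without PY CYP7a1-KO libraries 1 and 2, to 5 without PY SLC45a2-KO library 1 or PY CYP7a1-KO library 3, and to 4, 3, 3 and 2 without PY SLC45a2-KO library 5, PY SLC45a2-KO library 4, PY CYP7a1-KO library 4 and PY SLC45a2-KO library 3. For hmgcs1 the call was lost without PY SLC45a2-KO library 1, 3, 4 or 5 or PY CYP7a1-KO library 3 or 4 (adjusted p = 0.0610 to 0.0728), and for mvda without any single library other than PY CYP7a1-KO 1 or 5 (0.0623 to 0.109). For lss it was lost without PY SLC45a2-KO library 3 (0.0502), and for idi1 without PY SLC45a2-KO library 3 or 4 or PY CYP7a1-KO library 4 (0.0506 to 0.0779). The call for nsdhl held without any 1 library.

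Genes that sense and move sterols were mixed, with 3 of 25 higher and 2 lower. Without any 1 of PY SLC45a2-KO libraries 1 to 4 or PY CYP7a1-KO libraries 2 to 4 the lower count was 1, without PY CYP7a1-KO libraries 1 and 2 it was 3, and the fit of all 27 libraries had 5 higher. The low density lipoprotein receptor ldlrb, which takes up cholesterol from plasma, was 2.52-fold higher, at 15.5, 13.2, 21.3, 28.6 and 7.91 CPM against 11.2, 8.29, 5.26, 2.48 and 6.79 CPM (log2 1.33 ± 0.33, adjusted p = 0.00751). Library 5 of PY CYP7a1-KO lay inside the control range and libraries 1 to 4 above it. The high density lipoprotein receptor scarb1 rose without overlap, at 10.57, 11.4, 7.53, 9.95 and 16.2 CPM against 3.21, 4.56, 4.75, 4.70 and 5.94 CPM (log2 1.26 ± 0.30, adjusted p = 0.00498). Lysosomal cholesterol exporter npc1 was uniform within groups and fell 2.03-fold, from 29.7 ± 3.77 to 14.7 ± 1.23 CPM (log2 -1.02 ± 0.19, adjusted p = 0.000422).

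**Figure D2:**
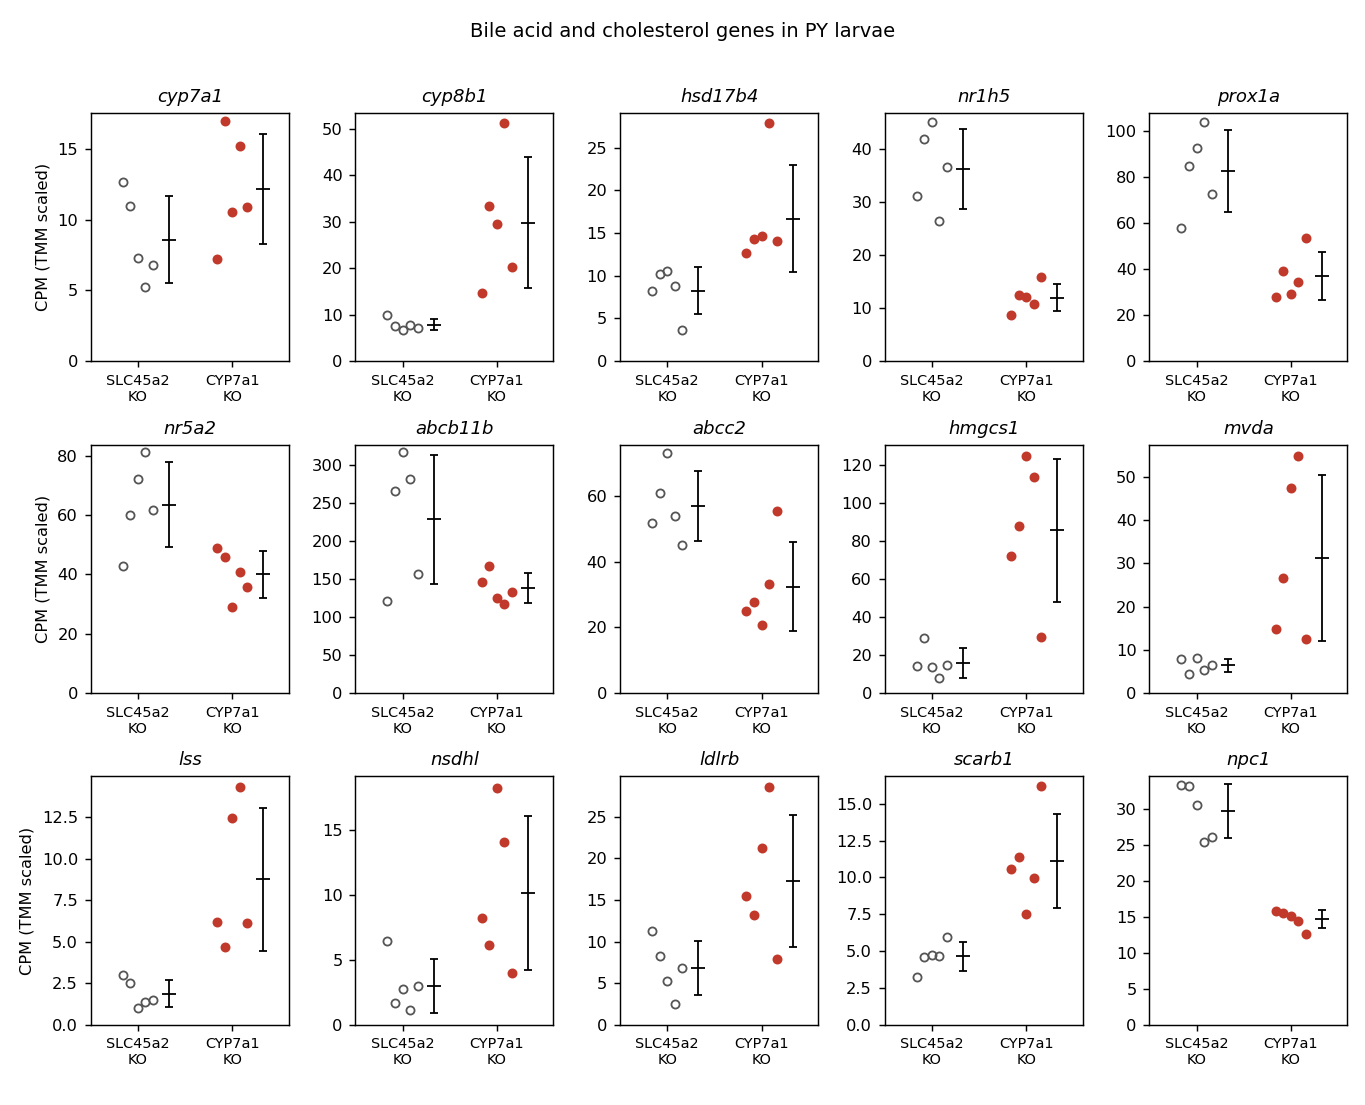
CPM of 15 bile acid and cholesterol genes in the 5 PY SLC45a2-KO (open circles) and 5 PY CYP7a1-KO libraries (filled circles), in library order from left to right, with mean ± SD beside each group. For cyp8b1, nr1h5 and prox1a the groups do not overlap, while cyp7a1 overlaps, and hmgcs1 and mvda spread widely within PY CYP7a1-KO. All but cyp7a1 were picked from genes that passed, so their separation supports nothing. Of all genes tested the groups did not overlap in 7.91%.

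In fat and sugar metabolism most members of each list did not pass, and the counts are to be read beside the 10.5% of all genes that passed. Of 20 fatty acid synthesis genes 5 rose and 1 fell (median log2 0.39), with 3 higher without PY SLC45a2-KO library 4. Stearoyl-CoA desaturase scd, which makes monounsaturated fat, stood at 9.54, 33.9, 20.4, 15.6 and 51.8 CPM against 4.36, 12.4, 4.505, 7.46 and 6.16 CPM, with PY CYP7a1-KO library 1 overlapping the controls (log2 1.90 ± 0.44, adjusted p = 0.0102). The acyl-CoA synthetase acsl5 rose (log2 1.08 ± 0.25, adjusted p = 0.00407), also with 1 library in the control range. Among lipoprotein genes 2 of 27 rose and 4 fell, with 1 and 2 lower without PY CYP7a1-KO library 3 and library 5. They included endothelial lipase lipg, higher at 24.5 ± 7.83 against 9.87 ± 4.30 CPM (log2 1.31 ± 0.30, adjusted p = 0.00515), and apoba, a structural protein of very low density lipoprotein, lower at 259.6 ± 33.5 against 409 ± 49.3 CPM (log2 -0.66 ± 0.14, adjusted p = 0.00179). Fatty acid oxidation genes passed in 4 of 35 cases, 1 higher and 3 lower, against 10.5% of all genes tested. Without PY SLC45a2-KO library 3 or 4 or PY CYP7a1-KO library 4 the lower count was 1.

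Among genes of sugar use a liver kinase rose and a mitochondrial brake, counted in the fatty acid oxidation list, fell. Glucokinase gck, the glucose-trapping kinase of the fed liver, measured 24.8, 45.0, 35.7, 55.4 and 41.8 CPM in PY CYP7a1-KO libraries 1 to 5 and 12.4, 23.0, 7.51, 14.6 and 21.9 CPM in the controls (log2 1.34 ± 0.30, adjusted p = 0.00528). Pyruvate dehydrogenase kinase pdk4, which blocks glucose oxidation and is induced by fasting in mammals, measured 41.2, 51.5, 27.9, 25.9 and 38.6 CPM and 100.3, 86.9, 106, 124 and 68.6 CPM (log2 -1.40 ± 0.20, adjusted p = 3.18e-05). For both genes the groups did not overlap. The glycolytic activator pfkfb3 fell as well (log2 -1.20 ± 0.24, adjusted p = 0.00153). Over all genes tested 5.24% rose and 5.28% fell. Of the 25 genes of the glucose list, which holds gck and pfkfb3 but not pdk4, 2 rose and 2 fell. Without PY SLC45a2-KO library 4 1 rose, and without any 1 of PY SLC45a2-KO libraries 1 to 3 or PY CYP7a1-KO libraries 3 and 4 1 fell.

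In the insulin and IGF axis 3 of 26 genes fell and 1 rose, the latter, sst1.1, not without PY CYP7a1-KO library 5. The IGF-binding protein igfbp1a, a hepatic protein that sequesters IGF and rises in fasting in mammals, was among those that fell. It stood at 346, 578, 576, 547 and 622 CPM in PY CYP7a1-KO libraries 1 to 5 and at 1956, 2067, 2196, 1987 and 1551 CPM in the controls. The gap between the groups was larger than the range of either, and igfbp1a was 3.65-fold lower (log2 -1.87 ± 0.16, adjusted p = 8.05e-09). Its paralog igfbp1b fell from 81.1 ± 23.7 to 18.1 ± 13.4 CPM (log2 -2.17 ± 0.52, adjusted p = 0.0178), a call lost without PY CYP7a1-KO library 4 (adjusted p = 0.0501). The insulin receptor substrate irs2a, induced in fasted mammalian liver, fell 2.22-fold (log2 -1.15 ± 0.22, adjusted p = 0.000928). The growth factor igf1 itself, chosen after its values were seen, measured 5.86 ± 2.49 against 3.74 ± 1.55 CPM and did not pass (log2 0.65 ± 0.38, adjusted p = 0.312).

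Inflammatory genes were lower. Of 40 acute phase and complement genes 17 fell and 1 rose (median log2 -0.64), and without PY CYP7a1-KO libraries 1 and 2 16 fell. Complement factor c4b, a component of the classical pathway, measured 249, 323, 219, 179 and 201 CPM against 621, 712, 791, 808 and 586 CPM and was 3.01-fold lower (log2 -1.59 ± 0.18, adjusted p = 6.54e-07). Factor B (cfb), of the alternative pathway, measured 9.03, 33.9, 32.7, 25.1 and 20.6 CPM against 79.2, 102, 61.6, 69.6 and 86.6 CPM (log2 -1.72 ± 0.27, adjusted p = 0.000225). For both the highest PY CYP7a1-KO library lay below the lowest control. The haemoglobin scavenger hp, an acute phase protein, stood at 3.09, 1.17, 0.860, 0.724 and 2.37 CPM against 6.20, 20.5, 9.51, 20.2 and 7.86 CPM (log2 -2.96 ± 0.79, adjusted p = 0.0281). Control libraries 2 and 4 were the highest, and its call was lost without PY SLC45a2-KO library 2 or 4 or PY CYP7a1-KO library 2, 3 or 4 (adjusted p = 0.0551 to 0.0840).

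The NF-kB list, of feedback inhibitors, cytokines and matrix proteases, had 14 of 28 members lower and the other 14 did not pass (median log2 -0.92). Without PY CYP7a1-KO libraries 1 and 2 11 fell. The NF-kB inhibitor tnfaip3 (A20), which NF-kB itself induces, measured 13.4, 17.8, 21.7, 23.5 and 35.4 CPM against 61.8, 116, 75.3, 78.4 and 44.8 CPM, without overlap (log2 -1.74 ± 0.23, adjusted p = 7.28e-06). The TNF-induced gene tnfaip2b fell 4.48-fold (log2 -2.16 ± 0.40, adjusted p = 0.000483). The neutrophil attractant cxcl8a was seen in 1 of 5 PY CYP7a1-KO libraries, with 10 counts in all, and in all 5 controls with 264 counts. Per count sequenced its level in PY CYP7a1-KO was 0.0362 times that in the controls (95% interval 0.0171 to 0.0676, counting error only). The collagenase mmp13a had 34 counts against 595, a ratio of 0.0545 (0.0374 to 0.0771). Control library 2 held the highest level of both, 35.9 CPM of cxcl8a and 90.6 CPM of mmp13a. The other controls stood at 2.55 to 9.01 and 5.94 to 16.02 CPM, which still did not overlap with PY CYP7a1-KO. Without PY CYP7a1-KO libraries 1 and 2 together neither cxcl8a nor mmp13a passed (adjusted p = 0.0513 and 0.0628).

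Immediate early genes, the first transcripts made after stress or growth signals, were lower in 16 of 41 cases and higher in 1 (median log2 -0.56), and 11 fell without PY CYP7a1-KO libraries 1 and 2. The AP-1 subunit fosl1a measured 17.8, 9.94, 14.2, 25.1 and 18 CPM against 66.8, 135, 49.3, 76.8 and 44.8 CPM (log2 -2.12 ± 0.28, adjusted p = 3.05e-05). The stress factor atf3 measured 28.4, 22.8, 35.5, 27.1 and 21.6 CPM against 92.1, 159.5, 92.4, 77.6 and 48.2 CPM (log2 -1.79 ± 0.25, adjusted p = 6.35e-05). Control library 2 was the highest for both, and no control overlapped with PY CYP7a1-KO. The phosphatase subunit ppp1r15a (GADD34), which restores translation after stress, fell 3.82-fold, at 30.9, 24.0, 25.6, 20.1 and 25.9 CPM against 82.4, 112, 109, 109 and 70.7 CPM (log2 -1.93 ± 0.18, adjusted p = 2.72e-08). The zinc finger factor egr4 fell to 2.06, 5.26, 2.79, 2.53 and 3.17 CPM in PY CYP7a1-KO from 10.56, 10.4, 11.8, 11.6 and 8.70 CPM in the controls (log2 -1.75 ± 0.36, adjusted p = 0.00164).

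Of the integrated stress and unfolded protein response 7 of 40 genes fell and 1 rose, and 4 fell without PY CYP7a1-KO libraries 1 and 2. The CHOP gene ddit3, a stress-induced factor that can promote cell death, measured 58.3, 40.4, 37.8, 34.4 and 35.4 CPM against 77.8, 101, 109.9, 99.97 and 74.9 CPM (log2 -1.17 ± 0.17, adjusted p = 3.05e-05). The angiogenic factor vegfaa fell too (log2 -1.18 ± 0.27, adjusted p = 0.00391). Thrombospondin thbs1a, an activator of TGF-beta, measured 19.3, 17.5, 12.3, 9.41 and 12.5 CPM against 60.8, 62.6, 65.1, 74.8 and 52.4 CPM (log2 -2.16 ± 0.23, adjusted p = 2.17e-07). Every PY CYP7a1-KO library lay below every control for thbs1a. Angiopoietin angpt2a, which loosens vessel walls, was 5.11-fold lower (log2 -2.35 ± 0.36, adjusted p = 0.000212).

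**Figure D3:**
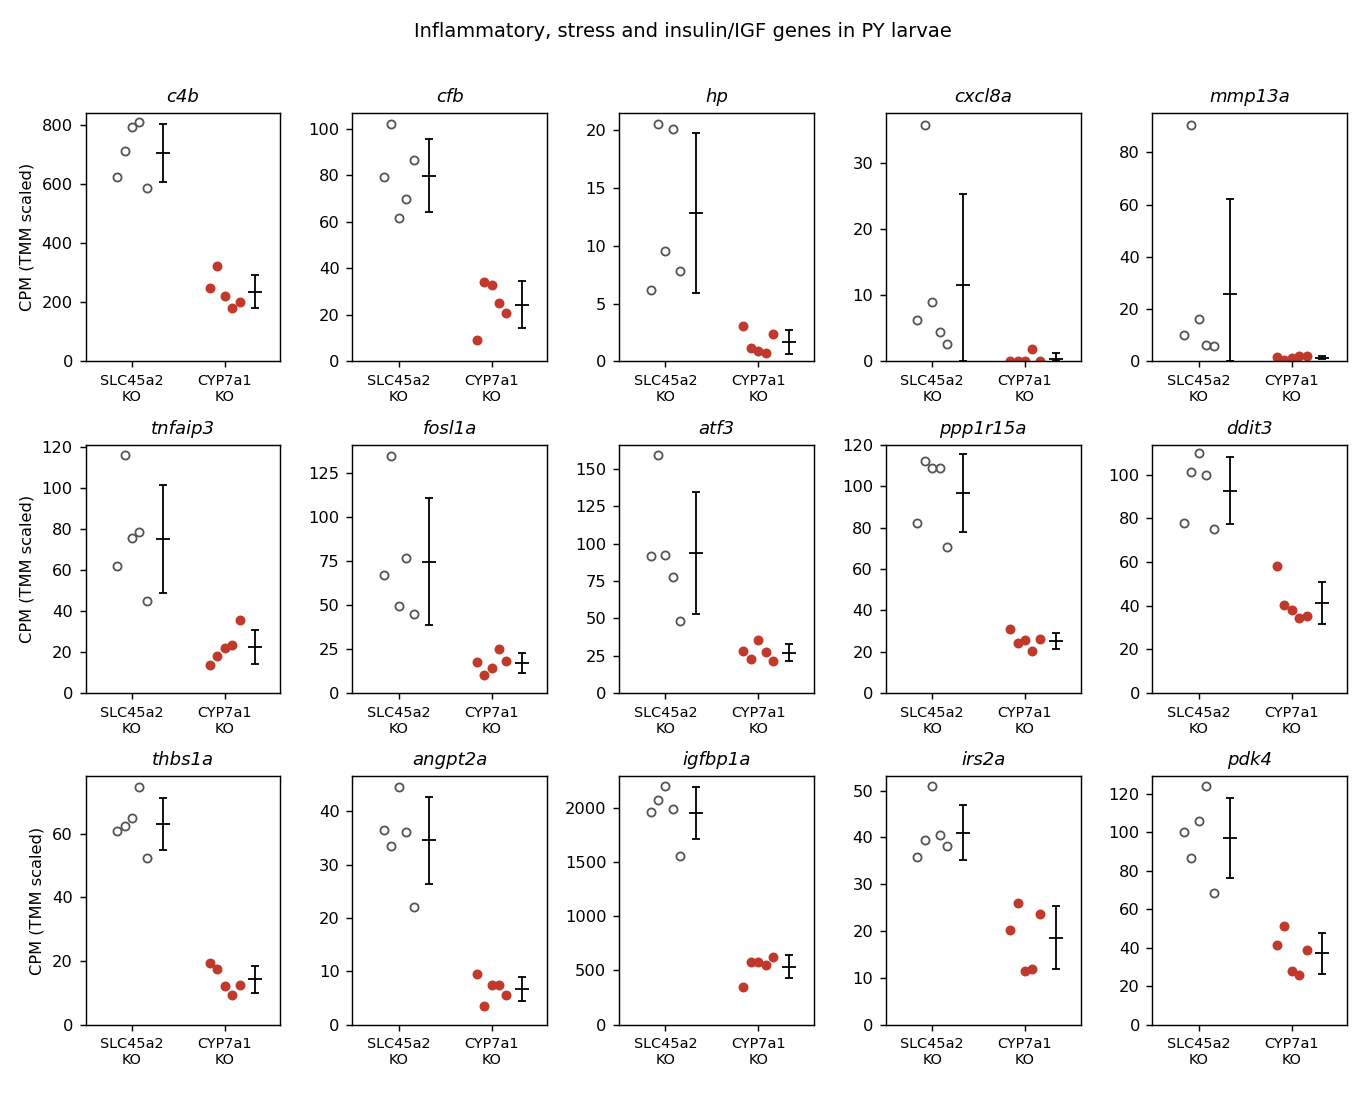
CPM of 15 inflammatory, stress, matrix and insulin/IGF genes in the 5 PY SLC45a2-KO (open circles) and 5 PY CYP7a1-KO libraries (filled circles), in library order, with mean ± SD beside each group (lower bars end at 0). In all 15 panels each PY CYP7a1-KO library lies below each control, and control library 2 is the highest for cxcl8a and mmp13a. All 15 were picked from genes that passed, so their separation supports nothing. Of all genes tested the groups did not overlap in 7.91%.

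Liver cell genes did not move as 1 block. Of 45 hepatocyte genes 9 fell and 2 rose (median log2 -0.15), with 7 lower without PY CYP7a1-KO libraries 1 and 2 and 4 lower without PY SLC45a2-KO library 3 or without PY CYP7a1-KO library 3. Angiotensinogen agt, the liver's precursor of angiotensin, fell 2.49-fold (log2 -1.32 ± 0.21, adjusted p = 7.37e-05), and coagulation factor f5 fell 1.73-fold (log2 -0.79 ± 0.16, adjusted p = 0.00117). The summed level of the 6 defining hepatocyte markers was 12950 to 22820 CPM in PY CYP7a1-KO and 16670 to 23710 CPM in the controls, which overlapped. Whether the share of liver cells differed was not tested. Of 28 YAP pathway genes 4 fell and 1 rose, and 1 fell without PY CYP7a1-KO libraries 1 and 2. The count of 4 was 2 without PY SLC45a2-KO library 1, 2 or 3 or PY CYP7a1-KO library 1 or 4. DESeq2 and the fit of all 27 libraries each had 4 higher and 4 lower. The yap1 transcript, not among the 28, had 4, 1, 8, 1 and 6 counts in PY CYP7a1-KO libraries 1 to 5. The controls had 10, 10, 7, 29 and 5 counts. Its level per count sequenced was 0.313 times that in the controls (interval 0.179 to 0.526, counting error only). The groups overlapped, and control library 4 held the most counts. Whether yap1 counts include the overexpressed YAP was not tested. Autophagy and lysosome genes fell in 5 of 50 cases, and in 11 without PY CYP7a1-KO library 5. The LC3-like gene map1lc3cl, a coat protein of the autophagosome family, was 8.01-fold lower, at 3.09, 5.85, 5.16, 3.98 and 1.98 CPM against 49.8, 33.8, 40.3, 22.1 and 13.6 CPM (log2 -3.002 ± 0.33, adjusted p = 6.54e-07). The lysosomal protease cathepsin L gene ctsla fell from 210.5 ± 28.6 to 109 ± 20.6 CPM (log2 -0.95 ± 0.16, adjusted p = 0.000161).

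Digestive genes were higher. In the exocrine pancreas 15 of 22 tested genes rose and the other 7 did not pass (median log2 0.75), and 16 rose without PY CYP7a1-KO libraries 1 and 2. The trypsin-family protease prss59.1 stood at 2183, 1975, 2628, 2726 and 2977 CPM in PY CYP7a1-KO libraries 1 to 5 and at 1003, 1584, 1284, 520.3 and 1198 CPM in the controls (log2 1.16 ± 0.20, adjusted p = 0.000376). The groups separated fully, and control library 4 was the lowest. The astacin protease c6ast4 (log2 1.26 ± 0.19, adjusted p = 4.11e-05) and the granule protein syncollin sycn.2 (log2 0.95 ± 0.16, adjusted p = 0.000130) rose as well. Reads from near-identical copies such as prss59.1 and prss59.2 or c6ast3 and c6ast4 could have been split by the counting, so single members are uncertain. The 5 defining pancreatic markers summed to 4324 to 5651 CPM in PY CYP7a1-KO and 2431 to 3886 CPM in the controls. Whether the pancreas held more cells was not tested.

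Among intestinal genes 20 of 48 rose and 2 fell (median log2 0.63), with 23 higher without PY CYP7a1-KO libraries 1 and 2. The meprin metalloprotease subunits of the brush border rose, mep1a.1 at 20.6, 34.8, 32.0, 35.8 and 27.7 CPM against 8.49, 11.4, 6.26, 11.9 and 14.9 CPM (log2 1.51 ± 0.25, adjusted p = 0.000169) and mep1a.2 by 3.57-fold (log2 1.84 ± 0.32, adjusted p = 0.000274). The acidic chitinase chia.1, which digests chitin of prey, stood at 369.5, 659.7, 538, 655 and 562 CPM against 181, 250.5, 234, 218 and 244 CPM (log2 1.302 ± 0.15, adjusted p = 8.11e-07). PY CYP7a1-KO library 1 was the lowest of its group for mep1a.1 and chia.1 and still above all controls. The 4 defining enterocyte markers, 1 of them at 0 in all 10 libraries, summed to 291 to 396 CPM against 252 to 304 CPM, which overlapped. The goblet cell marker agr2 stood at 21.4 to 45.8 CPM against 7.73 to 18.9 CPM, without overlap. In the list of xenobiotic metabolism 6 of 43 genes rose and 3 fell, with 1 lower without PY SLC45a2-KO library 3 or 4 or PY CYP7a1-KO library 3 or 4. Among its risers was the glucuronosyltransferase ugt1a7, which makes compounds soluble for excretion (log2 1.27 ± 0.19, adjusted p = 4.11e-05). Outside these lists hsd11b2, which inactivates cortisol, rose as well (log2 1.11 ± 0.15, adjusted p = 7.28e-06).

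Muscle structure genes were higher. Of 74 sarcomere genes 31 rose and 1 fell (median log2 0.46), with 28 higher without PY CYP7a1-KO libraries 1 and 2. The myosin-binding protein mybpc1, of slow fibres in mammals, stood at 44.6, 38.6, 39.6, 39.6 and 25.9 CPM against 13.3, 12.03, 14.8, 13.3 and 15.1 CPM, a clear separation with tight controls (log2 1.46 ± 0.19, adjusted p = 8.10e-06). The myosin chaperone partner smyd1b, needed for thick filament assembly in zebrafish, stood at 19.9, 26.6, 47.1, 36.0 and 21.6 CPM against 12.9, 7.67, 5.26, 10.5 and 12.1 CPM (log2 1.64 ± 0.26, adjusted p = 8.15e-05). The giant thin filament gene neb had 454 counts in PY CYP7a1-KO, in all 5 libraries, and 1 count in the 5 controls together. Per count sequenced the ratio was 433 (95% interval 77.4 to 17150, counting error only). In the other groups neb stood at 25.4 ± 19.5 CPM in PY TGR5-KO and 35.2 ± 4.88 CPM (n = 4) in WT SLC45a2-KO. The 4 defining muscle markers summed to 1013 to 1280 CPM in PY CYP7a1-KO, 383 to 709.9 CPM in the controls and 1137 to 1375 CPM in WT SLC45a2-KO. Hepatocyte, neutrophil, neuron and keratinocyte marker sums of PY CYP7a1-KO also overlapped with WT SLC45a2-KO. Those of exocrine pancreas, enterocytes, goblet cells, erythrocytes and photoreceptors lay below its range, and those of biliary cells and macrophages above it.

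Beside 5.28% lower and 5.24% higher of all genes tested, 2 of 35 genes of muscle atrophy and its regulators fell and 1 rose. The other 32 did not pass. The fallen genes numbered 1 without PY SLC45a2-KO library 3 or 4 or PY CYP7a1-KO library 3 or 4 and 5 without PY CYP7a1-KO library 5, where 3 rose. DESeq2 had 4 lower, the fit of only the 10 libraries 5 and the fit of all 27 libraries 7. The forkhead factor foxo4, of the family that drives atrophy genes in mammals, fell from 38.4 ± 3.79 to 18.6 ± 6.59 CPM (log2 -1.05 ± 0.22, adjusted p = 0.00207). The member that rose was mstnb, a myostatin gene, whose product limits muscle growth, at 5.55 ± 2.64 against 1.56 ± 0.809 CPM (log2 1.82 ± 0.49, adjusted p = 0.0132). It is named after its values were seen, and its call was lost without PY CYP7a1-KO library 3 (adjusted p = 0.0543). Oxidative phosphorylation genes passed in 3 of 69 cases, all higher, in 9 without PY CYP7a1-KO library 1, in 1 without library 4, and in 15 higher and 1 lower without PY CYP7a1-KO libraries 1 and 2.

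Eye and skeleton genes followed the same direction. Lens crystallin genes rose in 19 of 41 cases and photoreceptor genes in 13 of 46 (medians of log2 0.61 and 0.44), and in 13 and 11 without PY CYP7a1-KO libraries 1 and 2. The green cone opsin opn1mw1 stood at 10.57, 13.4, 34.4, 49.4 and 16.2 CPM against 4.59, 6.63, 6.76, 7.73 and 9.98 CPM (log2 1.80 ± 0.36, adjusted p = 0.00186), and the red cone opsin opn1lw2 at 11.6 ± 4.68 against 4.48 ± 2.06 CPM (log2 1.37 ± 0.36, adjusted p = 0.0111). PY CYP7a1-KO libraries 3 and 4 were the highest for both opsins. The gamma-crystallin crygm2d1 had 374 counts in the 5 PY CYP7a1-KO libraries and 0 in the 5 controls, so it was at least 119-fold higher, taking 3 counts over the group as the limit that a count of 0 allows. In PY TGR5-KO crygm2d1 stood at 15.6 ± 10.99 CPM and in WT SLC45a2-KO at 37.7 ± 17.6 CPM (n = 4). Its near copy crygm2d21 was present in every control and rose 7.55-fold (log2 2.92 ± 0.57, adjusted p = 0.00206). Members of this family share sequence and are uncertain as single genes.

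Of 48 bone and cartilage genes 17 rose and 2 fell (median log2 0.81), with 22 higher without PY CYP7a1-KO libraries 1 and 2. The phosphate-releasing enzyme entpd5a, required for mineralisation in zebrafish, stood at 9.03, 11.1, 12.04, 13.2 and 14.1 CPM against 5.97, 3.32, 3.75, 2.76 and 5.94 CPM (log2 1.44 ± 0.28, adjusted p = 0.000935). The cartilage collagen gene col9a3 rose 2.599-fold (log2 1.38 ± 0.29, adjusted p = 0.00193). Neither overlapped. The gene scpp8, which the neutrophil list also holds, went the other way, at 3.61, 0, 0.860, 0.543 and 2.18 CPM against 3.67, 34.8, 16.3, 9.66 and 2.76 CPM (log2 -3.21 ± 0.77, adjusted p = 0.0139). Which cells its change came from was not tested. Control libraries 2 and 3 were the highest for scpp8 and libraries 1 and 5 the lowest, near PY CYP7a1-KO library 1. Of 46 connective tissue genes 13 rose and 4 fell, and thbs1a was among those that fell. The count of 13 was 8 without PY SLC45a2-KO library 2 or PY CYP7a1-KO library 3. The skin keratin krtt1c19e stood at 928, 831, 1010, 1693 and 948 CPM against 372, 384, 505, 388 and 464 CPM (log2 1.36 ± 0.18, adjusted p = 1.65e-05), and of all 39 epidermal genes 6 rose and 2 fell, with 2 higher without PY CYP7a1-KO library 4.

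Replication genes rose in 5 of 57 cases and the other 52 did not pass (median log2 0.23), while 5.24% of all genes tested rose. The sliding clamp pcna stood at 83.5, 72.8, 136, 148.3 and 74.4 CPM against 72.1, 43.1, 35.3, 45.0 and 71.3 CPM, with PY CYP7a1-KO libraries 3 and 4 far above and the other 3 just above the controls (log2 0.95 ± 0.23, adjusted p = 0.00987). The replicative helicase subunit mcm3 rose 2.54-fold (log2 1.34 ± 0.33, adjusted p = 0.00955), but did not pass without PY CYP7a1-KO libraries 1 and 2 (adjusted p = 0.0678).

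**Figure D4:**
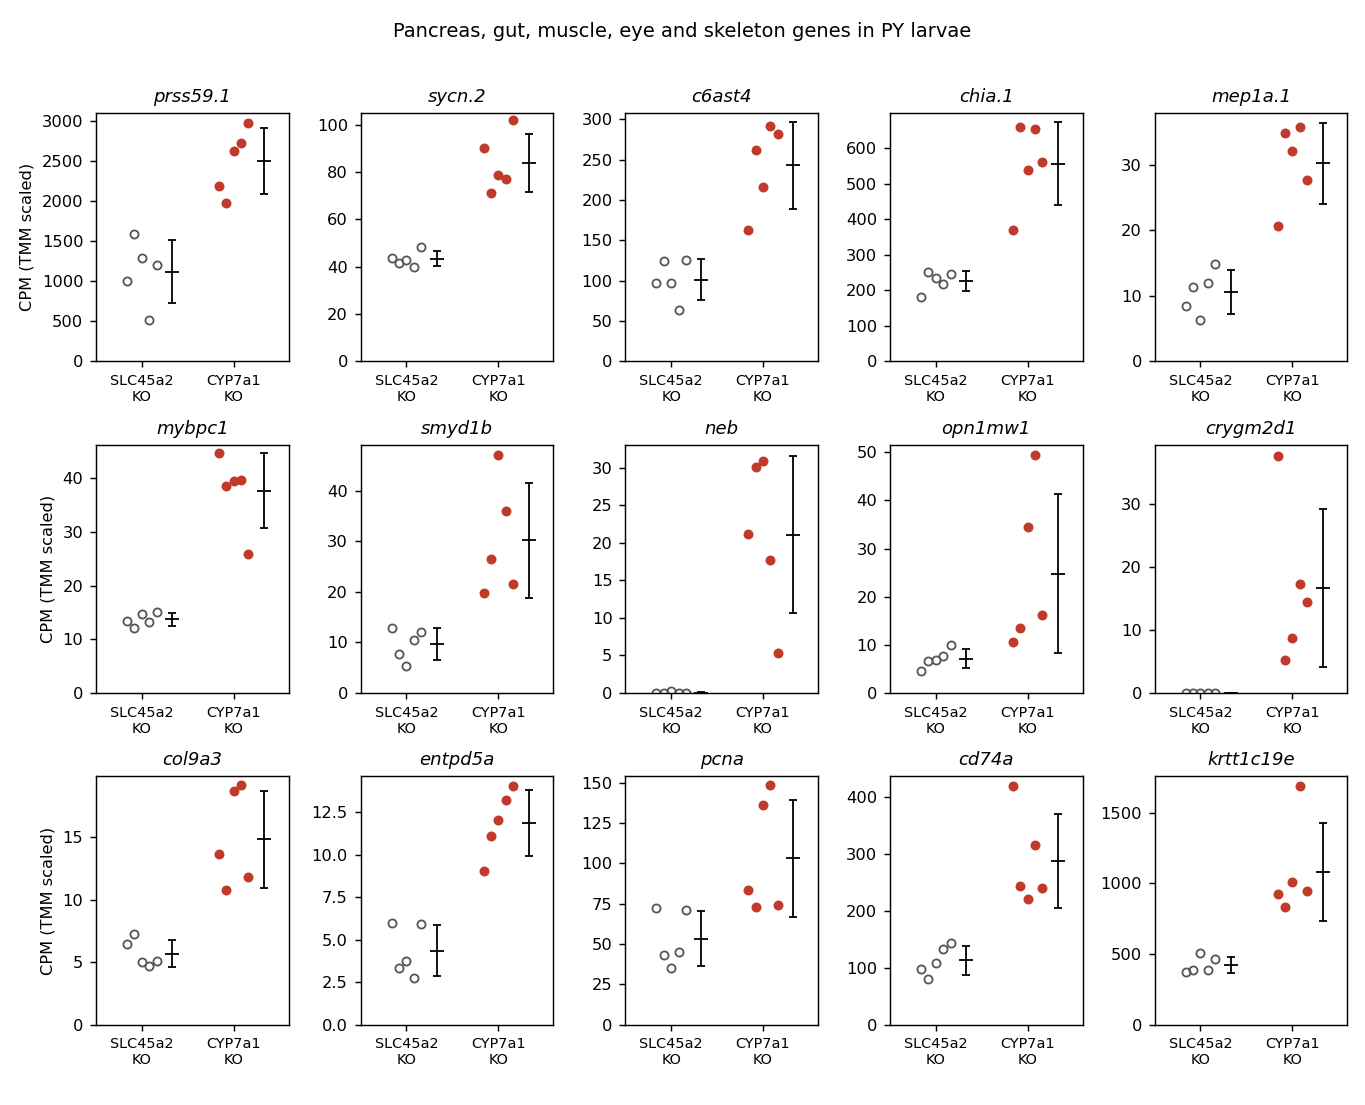
CPM of 15 pancreas, gut, muscle, eye, skeleton, replication, antigen presentation and skin genes in the 5 PY SLC45a2-KO (open circles) and 5 PY CYP7a1-KO libraries (filled circles), in library order, with mean ± SD beside each group. All 15 are higher in each PY CYP7a1-KO library than in each control, and neb and crygm2d1 are at or near 0 in the controls. The genes were picked from those that rose, so their separation supports nothing, and fallers such as scpp8 are not shown. Of all genes tested the groups did not overlap in 7.91%.

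Of 22 macrophage genes 1 rose and 2 fell, against 5.24% and 5.28% of all genes tested. The riser was cd74a, the invariant chain and chaperone of MHC class II molecules, at 418, 244, 219.5, 315 and 239 CPM against 97.6, 80.7, 108, 133 and 143.5 CPM (log2 1.35 ± 0.17, adjusted p = 6.30e-06). The scavenger receptor marco (log2 -0.81 ± 0.25, adjusted p = 0.0354) and the myeloid factor spi1b (log2 -0.83 ± 0.23, adjusted p = 0.0178) fell. The call for marco was lost without any 1 of PY SLC45a2-KO libraries 2 and 5 and PY CYP7a1-KO libraries 1 to 4 (adjusted p = 0.0530 to 0.108), and that for spi1b without PY SLC45a2-KO library 4 or PY CYP7a1-KO library 3 (0.0996 and 0.0648). Of 20 neutrophil-list genes 6 fell, among them mmp13a and scpp8, which other lists hold too. The 1 that rose, cpa5, is also in the exocrine pancreas list, and the count of risers was 1 in each of 21 alternatives. The fallen genes numbered 2 without PY CYP7a1-KO libraries 1 and 2. They were also 2 without PY SLC45a2-KO library 2, PY SLC45a2-KO library 3 or PY CYP7a1-KO library 4, and 3 without PY CYP7a1-KO library 2 or 3. The defining neutrophil markers summed to 20.2 to 30.9 CPM against 16.07 to 34.04 CPM, which overlapped. The 2 defining macrophage markers summed to 8.32 to 15.04 CPM against 14.23 to 23.78 CPM. Of these mpeg1.1 was at 0 in all 10 libraries, so the sum was the level of marco, and the highest PY CYP7a1-KO library (5) lay above the 2 lowest controls (1 and 3). The part of macrophage number in these results was not tested.

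Germ cell genes were looked at after their values had been seen, so their values support nothing. The egg gene zar1 stood at 12.9, 4.97, 24.3, 8.32 and 8.51 CPM against 0.230, 1.04, 1.00, 3.59 and 3.40 CPM (log2 2.68 ± 0.51, adjusted p = 0.00145). The germ line helicase ddx4 (vasa) stood at 15.7, 16.7, 20.9, 7.42 and 4.55 CPM against 2.98, 3.73, 1.00, 4.14 and 2.76 CPM (log2 2.13 ± 0.39, adjusted p = 0.000464). Both were higher in all 5 PY CYP7a1-KO libraries than in any control. Other large changes outside the lists were a rise of the acyl-CoA thioesterase acot21, from 3.49 ± 0.882 to 15.7 ± 3.43 CPM (log2 2.15 ± 0.45, adjusted p = 0.00296), and falls of the glycolipid transfer gene gltpd2 (log2 -3.12 ± 0.46, adjusted p = 3.49e-05) and the phosphatase dusp22a (log2 -2.63 ± 0.42, adjusted p = 0.000111). In the comparison as a whole the groups did not overlap in 1086 genes (7.91%), and 840 of these passed (6.12%).

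PY TGR5-KO offers a second knockout in the same background, aimed at a bile acid receptor rather than at synthesis. Tested directly, 1 of 13725 genes differed between PY CYP7a1-KO and PY TGR5-KO (0.00729%), while 931 had an unadjusted p below 0.05 and DESeq2 called 23. The median SE of a gene's log2 difference was 0.30, so small differences could not be detected. Larger ones could be missed too, as the direct test of cyp8b1 given below did not pass. The gene was cd74a, at 287 ± 81.9 CPM against 146.1 ± 17.5 CPM in PY TGR5-KO (log2 0.97 ± 0.17, adjusted p = 0.0400). Its level in PY CYP7a1-KO was highest in library 1, at 418 CPM against 219 to 315 CPM in the other 4, and without libraries 1 and 2 of PY CYP7a1-KO it was not called, 3 genes then passing and all lower. The call count was 0 without PY TGR5-KO library 1 or 5 or PY CYP7a1-KO library 4, 6 without PY TGR5-KO library 4 and 3 without PY CYP7a1-KO library 1.

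Against the same 5 controls, PY TGR5-KO passed in 1197 genes (8.72%), 598 higher (4.36%) and 599 lower (4.36%). The shared controls tie both comparisons together, so the values are only set side by side. Sarcomere genes rose in 32 of 74 cases with TGR5-KO and 31 with CYP7a1-KO, and NF-kB genes fell in 16 and 14 of 28. In the same order, acute phase and complement genes fell in 18 and 17 of 40 (0 and 1 rose). Immediate early genes fell in 15 and 16 of 41 (1 and 1 rose). Lens crystallin genes rose in 24 and 19 of 41 (0 and 0 fell), and bone and cartilage genes in 20 and 17 of 48 (2 and 2 fell). Exocrine pancreas genes rose in 2 of 22 with TGR5-KO and 15 with CYP7a1-KO, at medians of 0.29 and 0.75. In cholesterol synthesis the medians were 0.52 and 0.88. With TGR5-KO edgeR called 0 of 20, although 9 had an unadjusted p below 0.05, all of them higher, and DESeq2 called 4 higher. With CYP7a1-KO edgeR called 8 and DESeq2 9. In this list hmgcs1 stood at 49.9 ± 44.7 CPM in PY TGR5-KO against 85.7 ± 37.6 CPM. For cyp8b1 the levels were 12.02 ± 5.24 and 29.8 ± 14.1 CPM. The direct test of cyp8b1 gave a log2 difference of 1.301 ± 0.29 (adjusted p = 0.149), that of hmgcs1 0.77 ± 0.59 (0.889) and that of prss59.1 0.67 ± 0.19 (0.383). None of these 3 differences passed, which does not show that the knockouts act alike.

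Whether CYP7a1-KO did the same without tumours was asked with the WT groups. In WT 1788 of 15621 genes passed (11.4%), 618 higher (3.96%) and 1170 lower (7.49%), in a fit of all 27 libraries. The change in PY minus that in WT, the interaction, passed in 2749 genes (17.6%), 1647 higher (10.5%) and 1102 lower (7.05%). In 223 genes with a symbol CYP7a1-KO passed, within that fit, in both backgrounds with opposite signs and in the interaction. That fit called 2043 of 15621 genes in PY and 1788 in WT. Genes that passed in both with the same sign were not counted, so no excess of opposite signs is read from the 223. The cyp7a1 transcript itself rose in WT CYP7a1-KO, from 2.41 ± 1.69 to 44.6 ± 9.15 CPM (n = 4 each, log2 4.22 ± 0.36, adjusted p = 7.99e-11), and its log2 change in PY minus that in WT was -3.73 ± 0.46 (adjusted p = 1.73e-07).

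Cholesterol synthesis genes differed between the backgrounds. In WT 6 of 21 genes fell (median log2 -0.73), and the interaction was higher in 13. Intestinal genes fell in 14 and rose in 2 of 50 in WT, with 24 interactions higher and 3 lower. Replication genes fell in 20 of 59, oxidative phosphorylation genes in 26 of 70, proteasome genes in 28 of 44 and interferon response genes in 16 of 29. Their interactions were higher in 22, 36, 25 and 19 cases, while in PY most of these genes did not pass. Complement and acute phase genes fell in both, 17 of 40 in PY and 24 of 41 in WT, with 9 interactions higher and 1 lower. NF-kB genes passed in WT in 1 case higher and 1 lower, and their interaction was lower in 10 and higher in 2.

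Among single genes of opposite sign the protease inhibitor serpinb1l3 had the smallest interaction p. It rose in PY from 96.2 ± 15.9 to 176 ± 35.9 CPM (log2 0.87 ± 0.16, adjusted p = 0.000478) and fell in WT from 198 ± 24.7 to 57.2 ± 14.99 CPM (log2 -1.79 ± 0.17, adjusted p = 2.17e-10). For chia.1 the log2 change was 1.302 in PY and -0.62 in WT (interaction adjusted p = 7.05e-10), for hsd11b2 1.11 and -0.71 (5.40e-09) and for ugt1a7 1.27 and -0.96 (8.62e-09). In WT SLC45a2-KO these 4 genes stood above PY SLC45a2-KO, by log2 changes of PY against WT of -1.04, -1.76, -1.37 and -1.67. That comparison uses the same PY SLC45a2-KO libraries.

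**Figure D5:**
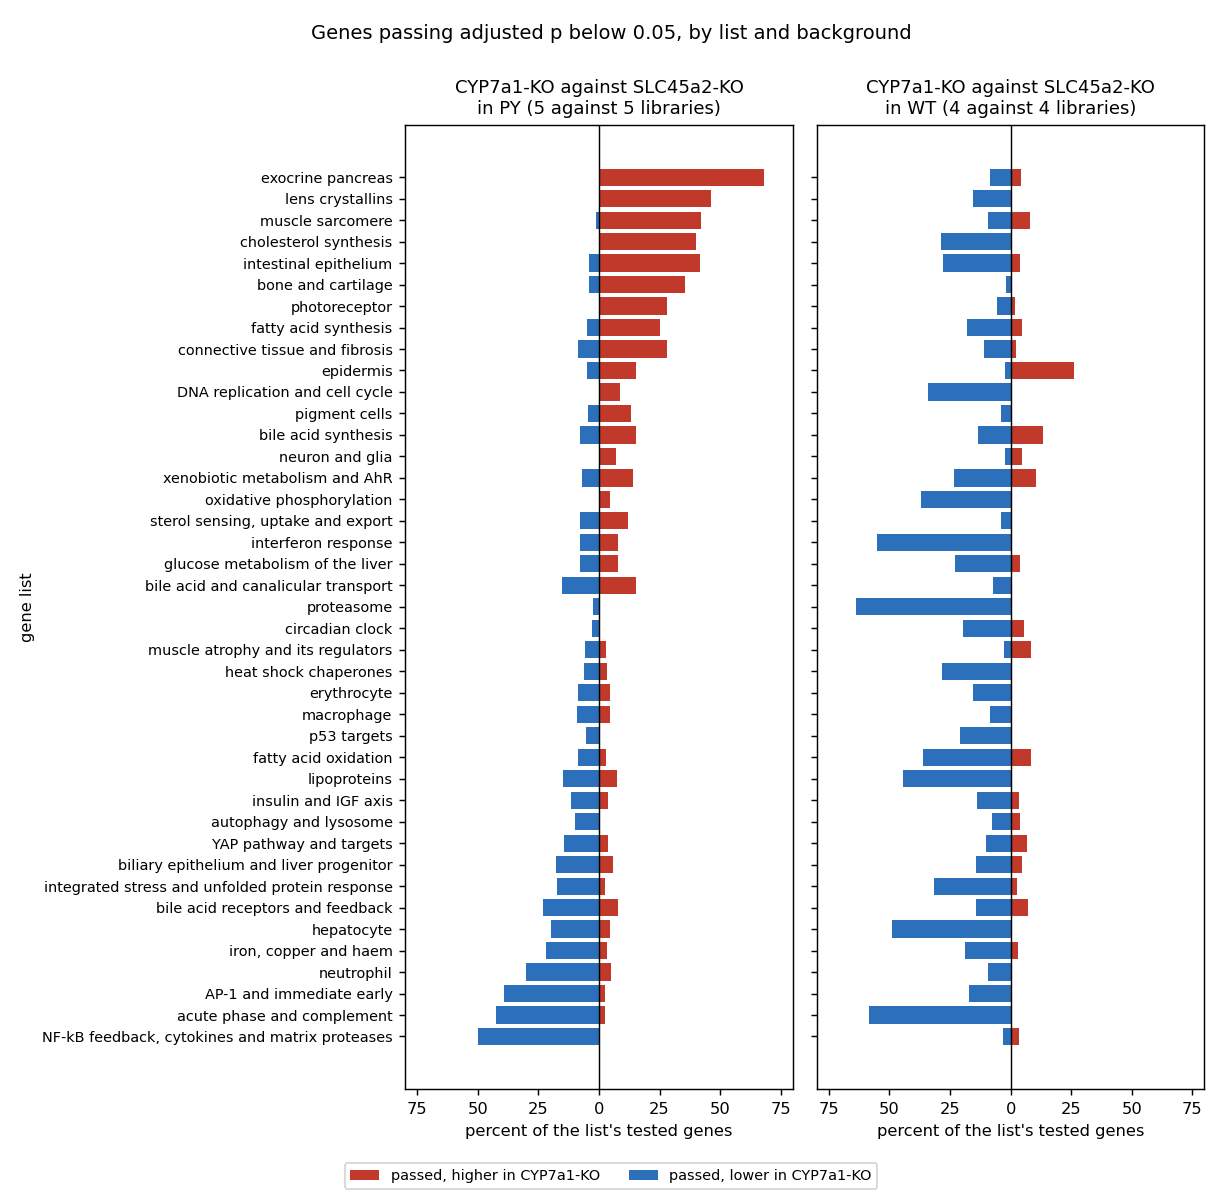
Percent of each list's tested genes that passed at an adjusted p below 0.05, higher (red, to the right) or lower (blue, to the left) in CYP7a1-KO than in SLC45a2-KO, in PY (left panel) and WT (right panel). Lists are ordered by the PY balance. PY calls are from the fit of the 15 PY libraries and WT calls from the fit of all 27, so bar lengths of the panels are not called alike. Complement is mostly blue in PY and blue in WT. Cholesterol synthesis is red in PY and blue in WT, and intestinal epithelium is mostly red in PY and mostly blue in WT.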

How the data were processed

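RNA of pooled whole larvae (age 21 days) was measured as Lexogen QuantSeq 3′ mRNA libraries, per the labels' protocols. The authors deposited 1 table of 39988 entries with raw counts per gene and their own CPM for 27 libraries. Builds danRer10 and GRCz11 are named, without a role, per the submitters' processing notes. The aligner, counter and strand setting were not given in the sources used here, so overlapping and near-identical genes are uncertain.

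Counts were analysed with edgeR 4.0.16 in R 4.3.3. TMM factors came from all 27 libraries, filterByExpr and robust quasi-likelihood fits used the 15 PY libraries, and interactions and WT values used all 27. The SE is the log2 change divided by the square root of F. CPM printed were recomputed from counts. Ratios of low counts have exact 95% intervals that cover counting error only. Named genes were cyp7a1, the largest non-overlapping changes, up to 4 called genes per list and the strongest opposite changes in WT, at a mean of at least 5 CPM, plus those said to be chosen after their values were seen. Members and lists were chosen with earlier results of these data known. DESeq2 1.42.0, other normalisations, filters, thinning, a replicate block and leaving out libraries were alternatives. Some named genes that the rule selects are not reported here.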

Additional observations from a re-analysis of the deposited data

Results flagged for a closer look

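Over 81 named genes in each of the PY CYP7a1-KO and PY SLC45a2-KO groups, 10 gene groups held a library whose gap to its nearest neighbour exceeded 0.71 of the group's range (Dixon's 95% value), where chance alone flags about 1 group in 20. PY CYP7a1-KO library 4 stood apart for hsd17b4 (27.9 CPM, high), krtt1c19e (1693 CPM, high) and cxcl8a (1.81 CPM, with the other 4 at 0). PY CYP7a1-KO library 1 stood apart for igfbp1a (346 CPM, low) and ddit3 (58.3 CPM, high), and library 5 for mcm3 (15.2 CPM, low). Among the controls, PY SLC45a2-KO library 2 was high for cxcl8a (35.9 CPM) and mmp13a (90.6 CPM), library 1 for gltpd2 (16.99 CPM) and library 3 for neb (0.25 CPM, a single count).

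In 58 of 81 named genes the log2 change with CYP7a1-KO in PY differed from that in WT (interaction in edgeR over 27 libraries, adjusted p below 0.05), against 17.6% of all genes tested. The genes were chosen largely for their change in PY, so this share supports nothing. Values are the change in PY minus that in WT on the log2 scale. Among bile acid genes the difference was -3.73 for cyp7a1, 1.69 for hsd17b4, -1.69 for prox1a, -0.86 for nr5a2, 1.16 for cyp3a65, 0.88 for abcb4 and -1.46 for abcc2. In cholesterol and lipid metabolism it was 3.48 for hmgcs1, 3.58 for mvda, 3.19 for lss, 2.48 for nsdhl, 1.80 for idi1, -1.35 for npc1, 2.48 for acsl5 and 1.18 for lipg. Genes of fuel choice and the insulin/IGF axis gave -2.12 for pdk4, -1.34 for igfbp1a, -1.82 for igfbp1b and -1.13 for irs2a. Inflammatory and stress genes were lower in this difference, with -8.27 for cxcl8a, -5.28 for mmp13a, -2.09 for tnfaip3, -2.997 for tnfaip2b, -1.89 for ppp1r15a, -1.64 for ddit3 and -1.31 for vegfaa. For matrix, vessel, lysosome and liver secretory genes the values were -2.02 for thbs1a, -2.10 for angpt2a, -2.69 for map1lc3cl, -0.89 for ctsla and -1.09 for agt. Digestive genes were higher, with 0.95 for c6ast4, 1.31 for prss59.1, 2.70 for mep1a.2, 2.28 for mep1a.1 and 1.92 for chia.1. Muscle genes gave 7.08 for neb, 2.96 for smyd1b, 1.34 for mybpc1 and -2.04 for foxo4. Eye, skeleton and skin genes gave 1.87 for opn1lw2, 8.42 for crygm2d1, 2.17 for crygm2d21, 1.75 for entpd5a, 1.71 for col9a3 and 1.12 for krtt1c19e. The value was -3.88 for scpp8, held by both the bone and the neutrophil list. Replication, immune and germ line genes gave 2.18 for pcna, 2.45 for mcm3, 1.15 for cd74a, -1.29 for spi1b and 1.80 for ddx4. The remaining genes gave 2.99 for acot21, -3.45 for gltpd2, -2.78 for dusp22a, 2.66 for serpinb1l3, 1.83 for hsd11b2 and 2.23 for ugt1a7. Fitted values for crygm2d1, neb and cxcl8a depend on libraries with 0 counts and are no bounds.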

How the results depend on the processing

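Of 78 named genes that passed between PY CYP7a1-KO and PY SLC45a2-KO, 18 lost the call in at least 1 alternative and 0 reversed. Of 3 that did not pass, 1 (nr0b2a) passed in at least 1 alternative. These counts leave out some genes named above, among them sult2st3, sst1.1 and abcb11a, which also lost calls. The comparison of PY CYP7a1-KO with PY SLC45a2-KO gave 1378 to 1787 genes under DESeq2, other normalisations, filters, thinning and non-robust estimation. It gave 999 to 1608 when 1 replicate was left out, lowest without PY CYP7a1-KO 4. Its higher genes numbered 472 to 807 when 1 replicate was left out and 1092 in the fit of all 27 libraries. Against PY TGR5-KO, DESeq2 gave 23 (11 higher, 12 lower), no filter 68 (33 and 35), all 27 libraries 22 (8 and 14), RLE factors 3 (3 and 0), a fit of only the 10 libraries compared 3 (3 and 0), thinned counts 2 (2 and 0), non-robust estimation 1 (0 and 1), without PY CYP7a1-KO libraries 1 and 2 it was 3 (0 and 3), and leaving out 1 replicate gave 0 to 6 (0 to 3 higher, 0 to 3 lower). The cause was not tested. Interactions numbered 2256 to 2923 when 1 replicate was left out. The replicate block gave 1186 genes (564 higher, 622 lower), 0 against PY TGR5-KO (0 higher) and 2630 interactions. Under the block mvda, igfbp1b, scpp8 and marco lost their calls (adjusted p = 0.0827, 0.0542, 0.0830 and 0.0560). Same-numbered libraries of PY CYP7a1-KO and PY SLC45a2-KO did not deviate together (r of -0.128 to 0.0114), so the numbers were not taken as pairs. Genes of a few counts per library had the least precise changes.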
